A study of Mus musculus with 6 samples.

Results

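The genes described here are 10 transcripts that extracellular signal-regulated kinase (ERK) signalling is known to induce, measured in livers of mice whose hepatocytes were given a guide RNA against Prdx2. They are the MAP kinase phosphatases Dusp4, Dusp5 and Dusp6, the Sprouty and Spred genes Spry1, Spry2, Spry4 and Spred1, the Ets transcription factors Etv4 and Etv5, and Phlda1. They were taken by gene symbol from a count table of 52459 genes, and were chosen with earlier results of these data known. All 10 passed the filter on low counts and were among the 17032 genes tested. None of the 10 passed edgeR's test between sgPrdx2 and sgCtrl livers after adjustment over all genes. DESeq2, which called 1168 genes higher and 898 lower over all genes, called Phlda1 higher. The fitted values were below 0 for 8 of the 10 genes and above 0 for Spry4 and Phlda1.

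The series holds bulk RNA-Seq of whole livers from 6 male C57BL6J mice of the Alb-Cre/Cas9 F1 cross. At an age of 4 to 5 weeks, 3 mice received AAV8-U6-sgCtrl, a vector with a control guide RNA (sgCtrl, mice 5.1, 7.1 and 7.2), and 3 received AAV8-U6-sgPrdx2 (sgPrdx2, mice 1.1, 1.3 and 3.2), both by the intravenous route. All 6 mice, controls included, then had diethylnitrosamine (DEN), a liver carcinogen, at 100 mg/kg after 3 weeks and, 1 week after that, began 6 months on CDAHFD, a choline-deficient high-fat diet that causes fatty liver inflammation and fibrosis. Livers are labelled as 8 months of age, so no untreated liver enters the comparison. Alb-Cre restricts Cas9 to cells of the hepatocyte lineage, so Prdx2 was not targeted in the other cells of the sample.

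ERK is the last kinase of the cascade that carries growth factor signals from receptor tyrosine kinases through Ras, Raf and MEK. Active ERK induces genes whose products switch the cascade off again, so their RNA levels are commonly read as a record of recent ERK output. The targeted gene, Prdx2, encodes a peroxiredoxin that removes hydrogen peroxide, and hydrogen peroxide can modify phosphatases and kinases of growth factor pathways. In liver, the cascade acts in hepatocytes during regeneration and tumour growth and also in endothelial, biliary, stellate and immune cells.

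Total counts ranged from 37462102 to 46753629 in sgCtrl and from 40454021 to 56865293 in sgPrdx2 livers. Values are CPM, the counts of a gene divided by library size and scaled to a common total, after TMM normalization, an edgeR scaling that sets the typical gene to no difference. Prdx2 RNA itself averaged 119 ± 11.6 CPM in sgCtrl livers and 120 ± 26.1 CPM in sgPrdx2 livers (SD, n = 3 each), and since small insertions or deletions need not lower an RNA, it does not check the labels. Liver 3.2 stood apart from the other 5. In each liver, the median log2 deviation from the 6-liver mean was taken over the longest and over the shortest genes (upper and lower quartile of exon length), and the longest minus the shortest was -0.65 in liver 3.2 and between 0.02 and 0.31 in the others. Results that rest on liver 3.2 are therefore given with and without it.

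The 10 genes were compared with the quasi-likelihood test of edgeR, Benjamini-Hochberg adjusted over all 17032 genes, and an adjusted p under 0.05 was called. In this comparison 1.79% of all genes tested were called higher and 1.54% were called lower in sgPrdx2 livers. Of the 10 genes, 0 were called in either direction. At an unadjusted p under 0.05, Phlda1 lay higher, beside 13.0% of all genes, and Dusp5 lay lower, beside 11.9% of all genes. DESeq2 called 1 of the 10, Phlda1, as higher, where it called 1168 genes higher and 898 lower of the 28631 it fitted. The 28631 include genes that got no adjusted p and could not be called. The median log2 fold change of the 10 was -0.36, while that of all genes tested was -0.02. It was -0.24 without liver 3.2, with 7 of 10 values below 0, and -0.49 without liver 1.3. In bulk tissue, fewer cells that express a gene and less RNA per cell cannot be told apart.

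**Figure D1:**
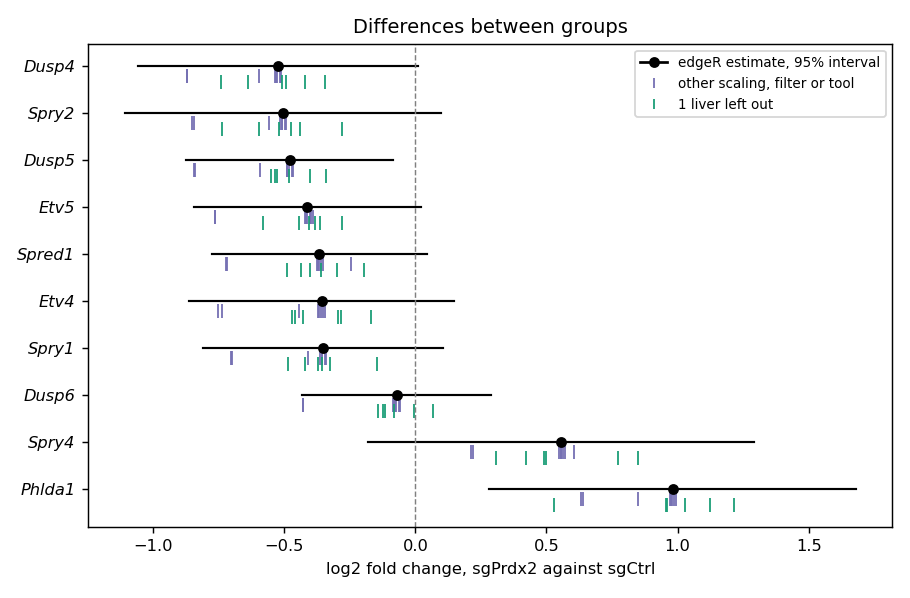
Log2 fold change of each of the 10 genes, sgPrdx2 against sgCtrl livers (x axis), with the edgeR estimate and its 95% interval in black, estimates under another scaling, filter or tool in purple and estimates with 1 liver left out in green. Only the intervals of Dusp5 (-0.87 to -0.08) and Phlda1 (0.28 to 1.68) exclude 0, and Dusp6 is the only gene whose estimates lie on both sides of 0.

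Dusp4, Dusp5 and Dusp6 encode dual-specificity phosphatases that remove the activating phosphates from MAP kinases. Dusp4 and Dusp5 act in the nucleus, and Dusp6 holds and inactivates ERK in the cytoplasm. Dusp5 (chr19:53529109-53542431) was at 7.70, 7.496 and 9.86 CPM in sgCtrl livers 5.1, 7.1 and 7.2 and at 5.35, 6.51 and 6.11 CPM in sgPrdx2 livers 1.1, 1.3 and 3.2. Each sgPrdx2 liver lay below each sgCtrl liver. The means were 8.35 ± 1.31 and 5.99 ± 0.587 CPM (SD, n = 3 each), and the fitted difference of -0.48 on the log2 scale (standard error 0.17) did not pass the test (adjusted p = 0.142, edgeR). Dusp5 stayed within -0.34 and -0.55 when any 1 liver was left out, liver 3.2 included (-0.48). Its call depended on the scaling. With library totals in place of TMM it was -0.85 (adjusted p = 0.0283), and scaled to 6 housekeeping genes it was -0.84 (adjusted p = 0.0359), but both scalings also moved the median of all 17032 genes to -0.39.

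Dusp4 (chr8:34807297-34819894) was at 6.46, 8.83 and 7.91 CPM in sgCtrl and 5.13, 6.95 and 3.99 CPM in sgPrdx2 livers, in the same order of mice. The groups overlapped, since sgPrdx2 liver 1.3 lay above sgCtrl liver 5.1. Its log2 fold change was -0.52 (95% interval -1.06 to 0.01, adjusted p = 0.208, edgeR), and it was -0.35 without liver 3.2. Dusp6 (chr10:99263231-99267489), the most abundant of the 3 phosphatases, was at 79.4, 93.5 and 84.5 CPM in sgCtrl and 89.6, 88.6 and 66.7 CPM in sgPrdx2 livers. sgPrdx2 livers 1.1 and 1.3 lay among the controls and liver 3.2 lay below them. On the log2 scale the difference was -0.07 (95% interval -0.43 to 0.29, adjusted p = 0.799, edgeR), and without liver 3.2 it was 0.07.

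Promoter windows of 250 bases before the transcription start were looked up by symbol in RefSeq (GRCm38.p6) and matched 6 of the 10 genes, namely Dusp5, Dusp6, Etv5 (with 2 windows, 7 in all), Spred1, Spry1 and Spry2. Dusp4, Spry4, Etv4 and Phlda1 were not matched. The windows are shown for the 3 genes whose letters hold an Ets core, since Ets factors phosphorylated by ERK bind such cores and 2 of the 10 genes encode Ets factors. Capitals mark the matches, which are AGGAAG or CGGAAG on either strand, and in Dusp5 also 2 CArG boxes, the element bound by serum response factor. The Dusp5 stretch is chr19:53528895-53529108, the Dusp6 stretch chr10:99262981-99263230 and the Spred1 stretch chr2:117120821-117121070, each on the plus strand and written 5′ to 3′. The Dusp5 stretch leaves out the last 36 bases of its window, which the GRCm38 annotation places in the first exon of the gene.
Dusp5: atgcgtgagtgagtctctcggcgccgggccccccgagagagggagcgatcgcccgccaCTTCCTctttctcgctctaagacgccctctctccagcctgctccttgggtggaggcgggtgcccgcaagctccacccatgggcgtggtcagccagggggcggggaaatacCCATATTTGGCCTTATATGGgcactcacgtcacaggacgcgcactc
Dusp6: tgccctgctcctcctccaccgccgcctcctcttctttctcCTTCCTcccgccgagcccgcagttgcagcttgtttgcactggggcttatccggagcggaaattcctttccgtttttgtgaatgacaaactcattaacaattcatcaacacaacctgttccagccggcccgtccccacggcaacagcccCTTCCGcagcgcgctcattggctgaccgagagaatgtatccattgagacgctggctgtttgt
Spred1: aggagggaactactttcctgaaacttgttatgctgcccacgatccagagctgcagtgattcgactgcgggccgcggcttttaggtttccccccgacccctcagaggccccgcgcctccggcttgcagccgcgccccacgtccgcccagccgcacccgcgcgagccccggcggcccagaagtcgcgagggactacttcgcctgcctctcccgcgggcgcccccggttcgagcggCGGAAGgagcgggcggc
The Ets core occurred in 3 of the 7 windows and in 39.2% of all 32851 RefSeq promoter windows of the same length, so its presence is common. Dusp6 held 2 such matches, which started 210 and 62 bases before the RefSeq start, and Spred1 held 1 match, which started 17 bases before it. The CArG box occurred in 1.47% of all windows and, of the 6 genes, in Dusp5 alone, where 2 boxes that do not overlap lay side by side from 82 to 63 bases before the start. The AP-1 letters TGACTCA or TGAGTCA (4.46% of windows) and the CRE letters TGACGTCA (1.55% of windows) were in none of the 7 windows. These matches describe the letters only, and no binding was measured. Of the 3 genes shown, Dusp5 had no overlap between groups, and Dusp6 and Spred1 overlapped.

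**Figure D2:**
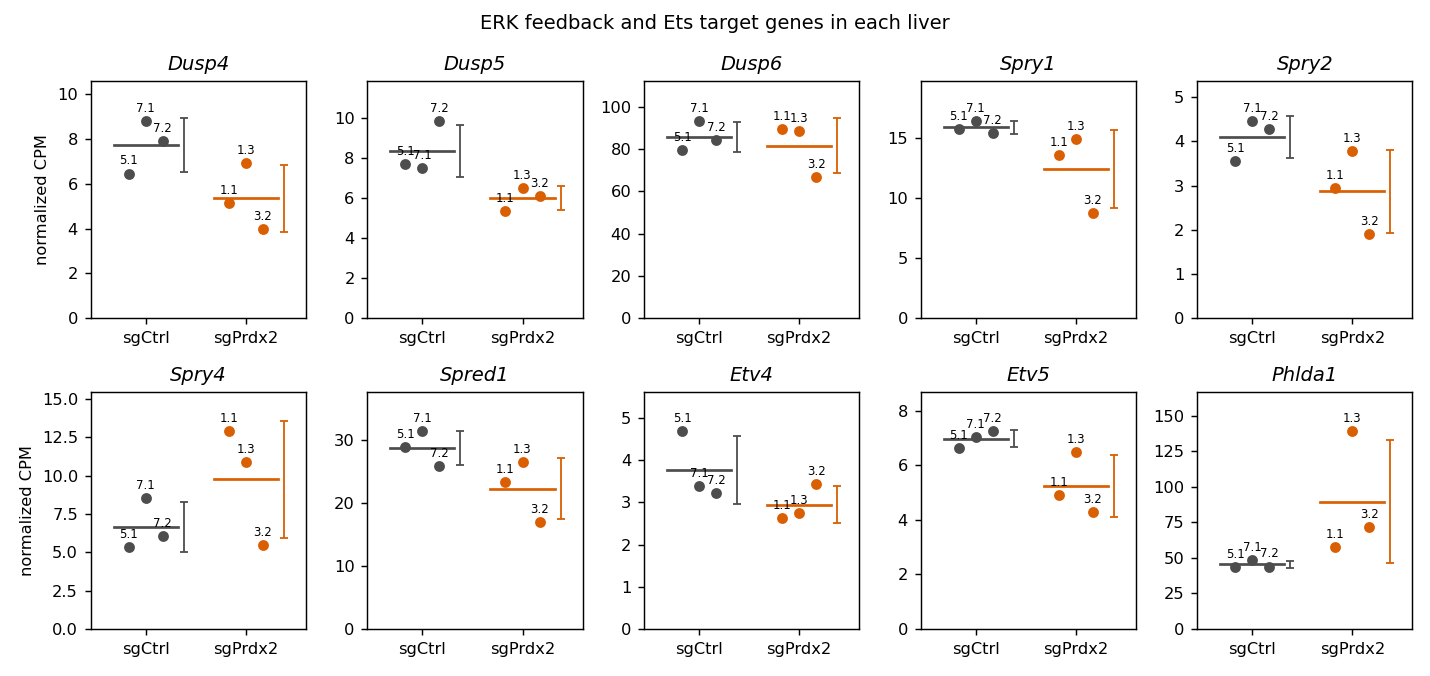
Expression of the 10 genes in TMM-normalized CPM, with 1 point per liver and a line at the mean of each group. The groups do not overlap for Dusp5, Spry1, Etv5 and Phlda1, and in Phlda1 the sgPrdx2 liver 1.3 lies far above the other 5 livers at 139 CPM.

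Sprouty and Spred proteins hold back signalling from receptor tyrosine kinases at the level of Ras and Raf. Spry1 (chr3:37639947-37644598) was at 15.7, 16.4 and 15.4 CPM in sgCtrl and 13.6, 14.9 and 8.75 CPM in sgPrdx2 livers. All sgPrdx2 livers lay below the controls, livers 1.1 and 1.3 by little and liver 3.2 by much. The fitted difference was -0.35 on the log2 scale (standard error 0.20, adjusted p = 0.307, edgeR), and -0.15 without liver 3.2. Spry2 (chr14:105891947-105896819) was at 3.56, 4.47 and 4.28 CPM in sgCtrl and 2.94, 3.77 and 1.90 CPM in sgPrdx2 livers, with sgPrdx2 liver 1.3 inside the range of the controls. Its log2 fold change was -0.51 (95% interval -1.11 to 0.10, adjusted p = 0.270, edgeR) and -0.28 without liver 3.2. The Spry2 count of 62 in liver 3.2 was the lowest of any of the 10 genes in any liver, and an exact Poisson 95% interval of 47.5 to 79.5 covers its counting error only.

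Spry4, a Sprouty gene of the same family, lay in the other direction from Spry1 and Spry2. It was at 5.35, 8.52 and 6.09 CPM in sgCtrl and 12.9, 10.9 and 5.50 CPM in sgPrdx2 livers. Livers 1.1 and 1.3 lay above every control, and liver 3.2 lay between the sgCtrl livers 5.1 and 7.2. The fitted log2 fold change was 0.56 (95% interval -0.18 to 1.29, adjusted p = 0.315, edgeR). Without liver 3.2 it was 0.85 and still not called (adjusted p = 0.0735), and without liver 1.1 it was 0.31. Spred1 (chr2:117121374-117182279) was at 28.9, 31.4 and 25.9 CPM in sgCtrl and 23.3, 26.5 and 16.95 CPM in sgPrdx2 livers. Liver 1.3 lay just above sgCtrl liver 7.2, so the groups overlapped. The log2 fold change of Spred1 was -0.37 (95% interval -0.77 to 0.04, adjusted p = 0.244, edgeR), and it was -0.19 without liver 3.2.

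Etv4 and Etv5 encode Ets factors of the PEA3 subfamily, which are induced by fibroblast growth factor and ERK signalling and in turn drive genes of growth and branching. Etv5 (chr16:22381309-22439719) was at 6.65, 7.03 and 7.25 CPM in sgCtrl and 4.90, 6.49 and 4.30 CPM in sgPrdx2 livers. The groups did not overlap, although liver 1.3 came close to the lowest control. The log2 fold change of Etv5 was -0.41 (95% interval -0.84 to 0.02, adjusted p = 0.221, edgeR), and -0.28 without liver 3.2. Etv4 (chr11:101769742-101785371) was at 4.68, 3.38 and 3.22 CPM in sgCtrl and 2.62, 2.76 and 3.44 CPM in sgPrdx2 livers. Here liver 3.2 was the highest of its group and lay above the controls 7.1 and 7.2, unlike in the Sprouty genes. Etv4 had a log2 fold change of -0.36 (95% interval -0.86 to 0.15, adjusted p = 0.345, edgeR). It was -0.17 without sgCtrl liver 5.1, the highest value, and -0.47 without liver 3.2.

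Phlda1 encodes a small pleckstrin homology-like protein whose RNA is induced by growth factors and that can restrain receptor signalling. Phlda1 (chr10:111506286-111508645) was at 43.8, 48.4 and 43.9 CPM in sgCtrl and 57.8, 139 and 71.8 CPM in sgPrdx2 livers. The controls lay close together, every sgPrdx2 liver lay above them, and liver 1.3 alone held 7520 counts, the highest count of any of the 10 genes. The means were 45.4 ± 2.63 and 89.5 ± 43.5 CPM (SD, n = 3 each). The difference of 0.98 on the log2 scale (standard error 0.30, 95% interval 0.28 to 1.68) did not pass edgeR's test (adjusted p = 0.106). DESeq2 called it (adjusted p = 0.0127), as did edgeR without a filter on low counts (adjusted p = 0.0469). Without liver 1.3 the estimate was 0.53 (adjusted p = 0.121), and without liver 3.2 it was 1.13 (adjusted p = 0.0961).

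Groups without overlap were thus seen for 1 gene in the higher direction, Phlda1, where 16.7% of all genes tested show this, and for 3 genes in the lower direction, Dusp5, Spry1 and Etv5, where 17.5% of all genes do. Two-sided exact permutation tests on these 4 genes gave p = 0.1, the smallest value that 3 livers against 3 allow. Of the 10 genes, 6 had their lowest value in sgPrdx2 liver 3.2, and 5 had their highest value in sgCtrl liver 7.1. The spread between livers also differed among the genes. In sgCtrl livers the SD was 3.25% of the mean for Spry1 and 24.96% for Spry4, and in sgPrdx2 livers it was 9.79% for Dusp5 and 48.5% for Phlda1.

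Part of the exons of 3 of the genes lies opposite another gene on the other strand of GRCm38. Gm28592 covers 33.0% of the exon bases of Phlda1 and Gm42922 covers 24.4% of those of Spry1. Few counts were assigned to either, 29 and 21 over all 6 livers. AC137853.2, which covers 22.1% of the exon bases of Dusp5, was not analysed here. Whether counting used the strand is not given in the sources used here, and without it reads from such partners cannot be told apart.

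Levels were set side by side per kilobase of exon, as normalized CPM per kb with exon lengths from the GRCm38 annotation. Among sgCtrl livers, Dusp6 stood highest at 27.4 ± 2.28 and Phlda1 next at 20.6 ± 1.19 (SD, n = 3 each), and their livers did not overlap. Spry1 (5.46 ± 0.178) and Spred1 (4.23 ± 0.408) came next, each without overlap with the gene above it. Dusp5 (3.38 ± 0.529) overlapped with Spred1 and with Dusp4 (2.82 ± 0.435). Spry2 (1.97 ± 0.229), Etv5 (1.70 ± 0.0741), Spry4 (1.40 ± 0.349) and Etv4 (1.21 ± 0.259) each overlapped with the next, and Spry2 did not overlap with Dusp4. The cytoplasmic ERK phosphatase was thus the leading transcript of the control livers, and the Ets factors were among the lowest.

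In sgPrdx2 livers the per-length order differed at the top and at Spry4. Phlda1, at 40.6 ± 19.7 CPM per kb, came before Dusp6 at 26.1 ± 4.13 (SD, n = 3 each), but the livers of these genes overlapped. Spry4, at 2.05 ± 0.804, stood sixth, above Spry2 at 1.38 ± 0.448, and was ninth in sgCtrl livers. Dusp6 did not overlap with Spry1 (4.27 ± 1.11), and below it each gene overlapped with the next. No difference in order was tested.

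**Figure D3:**
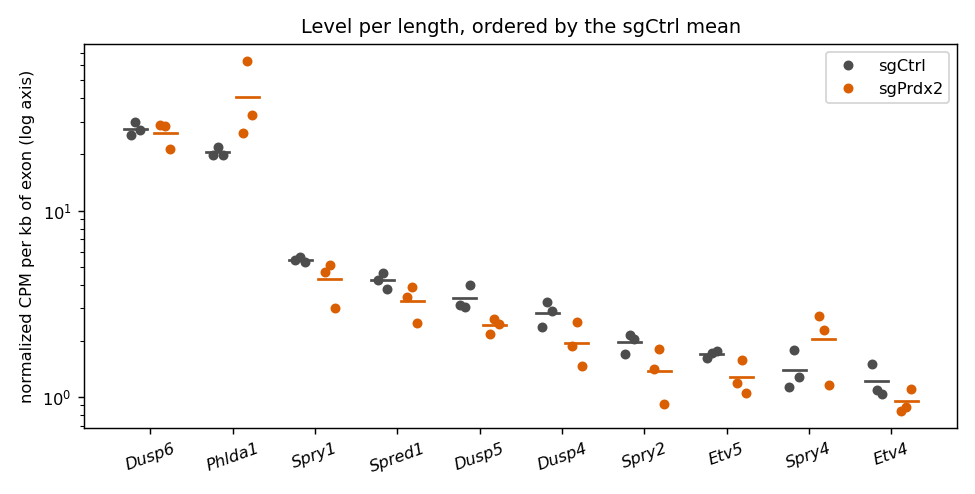
Level of each gene per exon length in CPM per kb (log axis), with 1 point per liver and genes in the order of their sgCtrl means. Dusp6 and Phlda1 lie above the other 8 genes in both groups, and Phlda1 comes before Dusp6 in sgPrdx2 livers.

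Ratios of counts between members of a family within the same liver do not depend on how libraries are scaled. The 7 pairs were chosen after the values were seen, so a test on them is no independent support. Two-sided exact permutation tests gave p = 0.1, the smallest value possible, for Spry4 to Spry2, Spry4 to Spry1 and Dusp4 to Dusp6. None of these passed after adjustment over the 7 pairs (adjusted p = 0.233, exact permutation test). The ratio of Spry4 to Spry2 was 1.5, 1.91 and 1.42 in sgCtrl and 4.39, 2.88 and 2.89 in sgPrdx2 livers. Here liver 3.2 lay with the other sgPrdx2 livers, and the mean log2 ratio differed by 1.06. The ratio of Spry4 to Spry1 was 0.340, 0.518 and 0.395 in sgCtrl and 0.950, 0.730 and 0.628 in sgPrdx2 livers, again without overlap and with a mean log2 difference of 0.88. The balance of these Sprouty transcripts thus lay toward Spry4 in all 3 sgPrdx2 livers, including liver 3.2, in which the level of Spry4 itself was not high. The ratio of Dusp4 to Dusp6 was 0.0814, 0.0945 and 0.0937 in sgCtrl and 0.0572, 0.0785 and 0.0599 in sgPrdx2 livers, also without overlap. The pairs Dusp4 and Dusp5, Dusp5 and Dusp6, Spry1 and Spry2, and Etv4 and Etv5 overlapped, with mean log2 differences of -0.08, -0.39, 0.17 and 0.09.

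**Figure D4:**
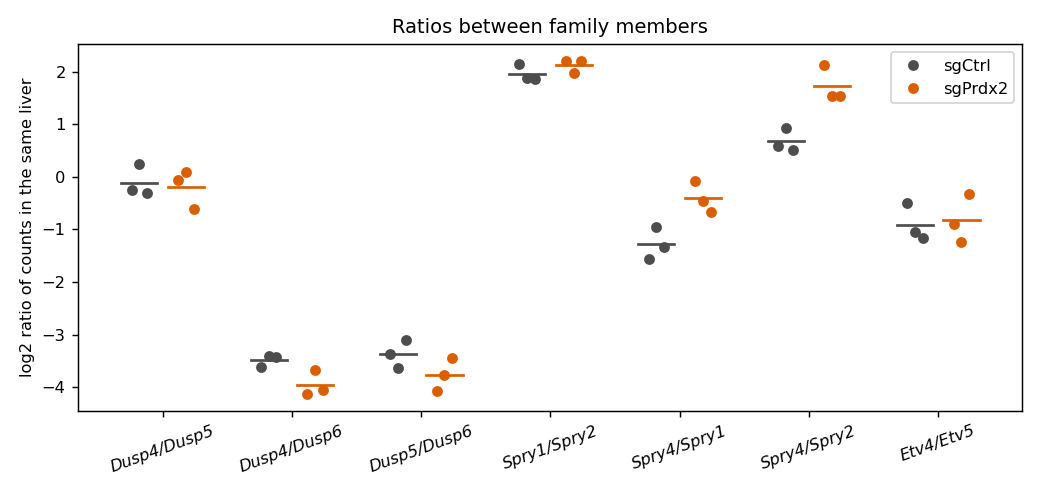
Log2 ratio of counts of gene pairs within a family (y axis), with 1 point per liver and a line at the mean of each group. Spry4 relative to Spry1 and to Spry2 lies higher in all 3 sgPrdx2 livers than in any control, with mean differences of 0.88 and 1.06, while Spry1 relative to Spry2 overlaps.

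Other genes of the pathway were taken from 6 lists written by function, 75 of whose 76 genes were tested (Spry3 was not analysed here). Of these, edgeR called 0 higher and 3 lower, beside 1.79% and 1.54% of all genes. DESeq2 called 1 higher and 9 lower, where it called 1168 and 898 of the 28631 genes it fitted. The 28631 include genes that got no adjusted p from DESeq2 and could not be called, Fosl1 (below) among them. At an unadjusted p under 0.05, 3 lay higher and 22 lower, beside 13.0% and 11.9% of all genes. All 3 genes that edgeR called lower were among Ets factors and ERK-responsive genes. Ehf, an epithelial Ets factor, was at 35.8, 30.7 and 30.2 CPM in sgCtrl and 19.1, 19.6 and 16.3 CPM in sgPrdx2 livers, and fell by 0.81 on the log2 scale (standard error 0.13, adjusted p = 0.0358, edgeR). It was the only gene called of 15 other Ets factors, 13 of which had values below 0, with a median of -0.47. Plaur, the urokinase receptor, was at 26.4, 18.9 and 21.2 CPM in sgCtrl and 8.48, 10.9 and 12.3 CPM in sgPrdx2 livers and fell by 1.07 on the log2 scale (standard error 0.19, adjusted p = 0.0394). Fosl1, an AP-1 subunit, was near the lower limit of the data at 0.937, 0.801 and 1.03 CPM in sgCtrl and 0.319, 0.388 and 0.369 CPM in sgPrdx2 livers (12 to 54 counts), with an adjusted p of 0.0455. Plaur and Fosl1 were 2 of 12 other ERK-responsive genes, 9 of which had values below 0, with a median of -0.79. All 3 calls were lost in at least some fits that left out 1 liver. The lists held 0 calls without liver 5.1, 7.2, 1.1 or 1.3, 2 without liver 7.1 and 4 without liver 3.2. Ehf and Plaur kept their calls without liver 7.1 and without liver 3.2. Fosl1 lost its call whichever liver was left out, with an edgeR adjusted p of 0.0645 without liver 7.1 and 0.0566 without liver 3.2.

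In the cascade itself and its other inhibitors edgeR made no call. At an unadjusted p under 0.05, 1 cascade gene of 26 lay higher and 5 lay lower. Of the 10 inhibitors of Ras and Raf, 1 lay higher and 2 lay lower. Over all genes tested, 13.0% lay higher and 11.9% lay lower at this threshold. Of 26 genes of the Ras-ERK cascade, from Grb2 to the ERK substrates of the Rps6ka and Mknk families, 19 had values below 0, with a median of -0.16. The smallest p belonged to Mknk1 (log2 fold change -0.49, standard error 0.12, adjusted p = 0.0641), a kinase of the translation factor eIF4E, and Rps6ka3 (-0.65, adjusted p = 0.105), which encodes the ribosomal S6 kinase RSK2. DESeq2 called both lower (adjusted p = 0.0138 and 0.0388), and with the length and GC correction edgeR also called Mknk1 (adjusted p = 0.0452). Of 7 other MAP kinase phosphatases, 6 had values below 0, with a median of -0.25 and with Dusp2 at -0.44 (adjusted p = 0.205) and Dusp8 at -0.62 (adjusted p = 0.232). The relatives of the Sprouty, Spred, PEA3 and Phlda genes had a median of -0.11 over 5 tested, with Spred2 at -0.26 (adjusted p = 0.503) and Phlda3 at -0.17 (adjusted p = 0.520). Of 10 inhibitors of Ras and Raf or of growth factor receptors, 7 had values below 0, with a median of -0.27, and Rasa2, a Ras GTPase-activating protein, was at -0.56 (adjusted p = 0.126). Without liver 3.2 the log2 fold changes were -0.50 for Mknk1, -0.45 for Rps6ka3, -0.40 for Dusp2 and -0.51 for Dusp8. They were then -0.03 for Spred2, -0.32 for Phlda3 and -0.42 for Rasa2.

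**Figure D5:**
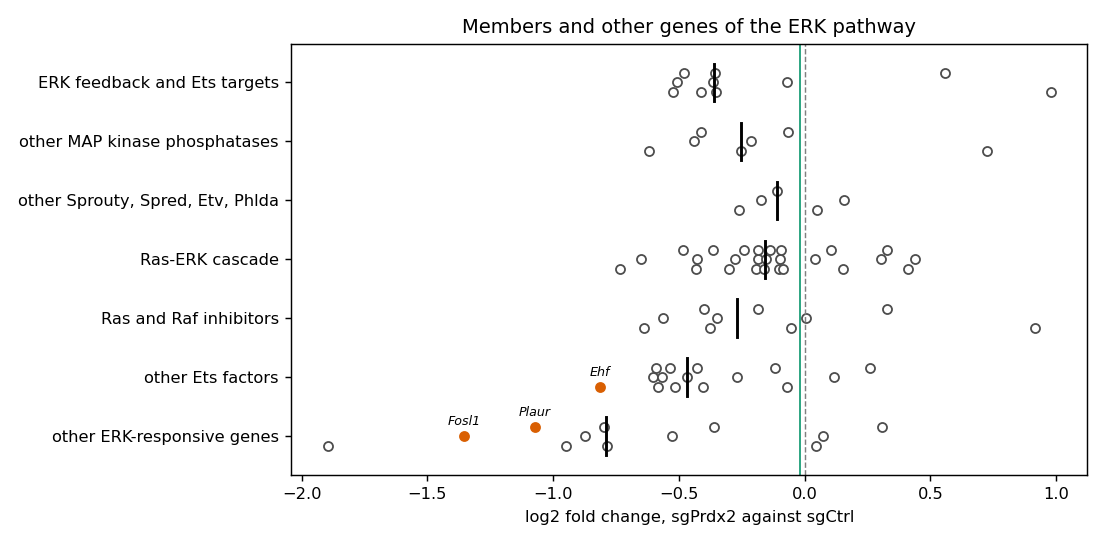
Log2 fold change of each tested gene in the 10 genes and the 6 pathway lists, sgPrdx2 against sgCtrl livers, with black ticks at list medians, filled orange points for called genes and a green line at the median of all genes tested (-0.02). List medians run from -0.11 to -0.79, and the only called genes are Ehf, Plaur and Fosl1.

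Errfi1, a feedback inhibitor of the epidermal growth factor receptor, had a pattern like that of Phlda1. It was at 270, 226 and 259 CPM in sgCtrl and 318, 799 and 307 CPM in sgPrdx2 livers, a difference of 0.91 on the log2 scale (standard error 0.36, adjusted p = 0.171, edgeR), and DESeq2 called it higher (adjusted p = 0.0490). The groups did not overlap, and liver 1.3 was again far above the rest. This did not hold for all ERK-responsive genes. Ier3, Hbegf and Areg, picked after their values were seen, were highest in sgCtrl liver 7.2. They were at 25.1, 6.41 and 9.65 CPM there, against 14.9, 5.95 and 2.83 CPM in liver 1.3. The immediate early genes Dusp1, Fos and Egr1 were also picked after their values were seen, and each was highest in liver 1.3. They were at 81.8, 69.0 and 218 CPM there, against at most 40.6, 40.6 and 140.5 CPM in the other 5 livers. None of these 3 separated the groups, with adjusted p of 0.273, 0.780 and 0.957. Such genes respond within minutes to growth factors, and their part in the Phlda1 value of liver 1.3 was not tested.

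The marker lists of liver cell types lay apart between the groups as well. The summed level of 8 hepatocyte markers was 79230 to 85810 CPM in sgCtrl and 135200 to 180500 CPM in sgPrdx2 livers, with 4 of 8 called higher, among them Alb (log2 fold change 0.97) and Ttr (1.35). Summed levels of non-hepatocyte markers were lower in sgPrdx2 livers, without overlap, for macrophages (3323 to 3779 against 2310 to 3105 CPM), stellate cells and myofibroblasts (1285 to 1795 against 1024 to 1095 CPM), endothelial cells (344 to 346 against 259 to 326 CPM), cholangiocytes (1678 to 1904 against 1261 to 1445 CPM) and lymphocytes (82.9 to 97.9 against 44.9 to 69.7 CPM). Those of neutrophils (22.4 to 29.9 against 19.8 to 23.7 CPM) and of proliferation (58.9 to 101 against 49.8 to 62.7 CPM) overlapped. Called lower were Mpeg1 of 8 macrophage markers, Pecam1 of 8 endothelial markers and Cd8a of 8 lymphocyte markers. Of 8 stellate, 7 cholangiocyte, 5 neutrophil and 6 proliferation markers, 0 were called. Over all genes tested, 1.79% were called higher and 1.54% lower. As single genes, 16.7% of all genes tested lay higher and 17.5% lower without overlap, and no such share was computed for sums. The first genes of these lists were at -0.81 for Adgre1, -0.69 for Cd68, -1.49 for Acta2, -0.50 for Col1a1, -0.77 for Pecam1, -0.76 for Cdh5, -0.24 for Krt7, -0.59 for Krt19, -0.87 for Ptprc, -0.32 for Cd3e, -0.15 for S100a8, -0.13 for S100a9, -0.73 for Mki67 and -0.75 for Top2a, as log2 fold changes. No marker was at 0 in all livers, although Ly6g, with 2 counts in all, was not tested. The part of these cell types in the values of the 10 genes was not tested.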

How the data were processed

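RNA-Seq of 6 mouse livers was analysed, 3 sgCtrl and 3 sgPrdx2, grouped by the guide RNA named in the labels. The authors deposited whole-number counts of reads per gene without normalization. The submitters' processing notes name HISAT2, HTSeq, DESeq2 and the build GRCm38. Tool versions, annotation and strand setting are not given in the sources used here. The authors' own table of DESeq2 fold changes, standard errors, scores and p-values was not used.

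The analysis used edgeR 4.0.16 under R 4.3.3: filterByExpr (minimum count 10, 17032 genes kept), TMM, and the quasi-likelihood test (glmQLFit, glmQLFTest) on all 6 livers without covariates, with Benjamini-Hochberg adjustment over all genes tested and a threshold of 0.05. Standard errors were obtained from the fold change and its F statistic, and the fits were tested on simulated data. Counts of different livers differed by more than sampling noise (chi-square per degree of freedom of at least 34.7), so no library was a copy. Total counts per liver were 37462102 to 56865293, and intervals on counts cover counting error only. Length deviations used log2(CPM + 0.5) and genes of at least 1 CPM on average.

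The 10 genes and all lists were chosen with earlier results of these data known. Named by rule were all 10 genes, Prdx2, each called gene of a pathway list or else its 2 smallest p-values, and the first 2 genes of each marker list. Outside this rule, Mpeg1 and Cd8a were named as called markers. Ier3, Hbegf, Areg, Dusp1, Fos and Egr1 were named after their values were seen. Each liver is 1 mouse per the labels. Alternatives were RLE, upper-quartile, library-total and housekeeping scaling (Atp5b, Bag6, Cox8a, Hint1, Hnrnpa2b1, Ndufa2), DESeq2 1.42.0, other filters, a length and GC correction, and leaving out each liver. No sequencing batch is given. Gene positions and exon lengths come from a GRCm38 annotation that may not be the one the counts were made with.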

Additional observations from a re-analysis of the deposited data

How the results depend on the processing

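Over 14 alternatives, 135 of 140 values of the 10 genes kept their direction and their side of the threshold. Phlda1 was the 1 gene called higher by DESeq2 and with no filter on low counts, and Dusp5 the 1 gene called lower with library totals and with housekeeping scaling. Dusp6 turned from -0.07 to 0.066 without sgPrdx2 liver 3.2. The median of the 10 genes moved to -0.73 with library totals and to -0.74 with housekeeping scaling, where the median of all genes was -0.39 in both, and the 10 genes minus all genes stayed between -0.34 and -0.35 under these scalings and TMM. Without 1 liver that median ranged from -0.49 to -0.24.

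Genes of the 6 pathway lists called lower numbered 3 as reported, 28 with library totals, 13 with housekeeping scaling, 9 with DESeq2, 9 with the length and GC correction, 5 with no filter and 5 with at least 10 counts in every liver, and ranged from 0 to 4 without 1 liver. DESeq2 called 1 of them higher, Errfi1. Over all genes, 305 were called higher and 262 lower as reported, 206 and 3041 with library totals, 116 and 1521 with housekeeping scaling, 1168 and 898 with DESeq2, 644 and 484 with no filter, and 567 and 491 with the length and GC correction. Calls ranged from 0 to 324 higher and from 0 to 295 lower without 1 liver, and were 0 in 4 of these 6 fits. The cause was not tested. No paired analysis was possible because the groups share no replicate number. The lowest count of any of the 10 genes was 62, and how much of each interval is counting error was not tested.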
